A study of Mus musculus with 8 samples.

Results

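The genes of mannose and hexosamine nucleotide-sugar synthesis were followed in the livers of fasted mice that lacked pyruvate carboxylase in hepatocytes. The set held 10 genes, Mpi, Pmm1, Pmm2, Gmppa, Gmppb, Gfpt1, Gnpnat1, Pgm3, Uap1 and Gne, out of 35275 genes in the count table, and all 10 were among the 13168 genes that passed the filter on low counts. Pmm1 was selected on its difference between the genotypes in these same libraries, and the other 9 genes were set beside it as steps of the same pathways. The genotype differences of the 10 genes are therefore given as a description, and the number past the threshold is given only beside that of all genes. RNA sequencing of liver had been done for 4 control mice and 4 Pcx L-/- mice, with 1 library for each mouse. All were male C57BL/6 mice of 9 weeks on a chow diet, and all were fasted for 24 h before the liver was taken. Pcx L-/- mice carried floxed Pcx alleles and Cre recombinase under the albumin promoter, which acts in hepatocytes, so other liver cells keep the gene. Controls were Pcx f/f littermates and carry the label WT.

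Sugars are attached to proteins from activated donors, and 2 of these donors are made by short cytosolic routes that leave glycolysis at fructose-6-phosphate. In the mannose arm, Mpi makes mannose-6-phosphate, a phosphomannomutase (Pmm1 or Pmm2) turns it into mannose-1-phosphate, and Gmppb joins this to GTP to give GDP-mannose, with Gmppa as the regulatory partner of Gmppb. In the hexosamine arm, Gfpt1 makes glucosamine-6-phosphate from fructose-6-phosphate and glutamine, Gnpnat1 acetylates it, Pgm3 moves the phosphate, and Uap1 makes UDP-N-acetylglucosamine, from which Gne starts the synthesis of sialic acid. GDP-mannose and UDP-N-acetylglucosamine supply the oligosaccharide on dolichol that is passed to secreted proteins in the endoplasmic reticulum, and the liver makes most of the glycoproteins of blood plasma. Pmm2 is the enzyme whose loss causes the commonest human disorder of N-glycosylation, and Pmm1 is its close relative.

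The pair of genes with the largest fold differences in the set, Pmm1 and Gfpt1, are shown by the stretch of DNA before their start. Each sequence is the 250 bases upstream of the RefSeq start in GRCm38.p6, read 5′ to 3′ on the gene's own strand, at chr15:81960931-81961180 on the minus strand for Pmm1 and chr6:87042596-87042845 on the plus strand for Gfpt1. Capitals mark each match to GGGCGG, known as the GC box, or to CCAAT, on either strand.
Pmm1: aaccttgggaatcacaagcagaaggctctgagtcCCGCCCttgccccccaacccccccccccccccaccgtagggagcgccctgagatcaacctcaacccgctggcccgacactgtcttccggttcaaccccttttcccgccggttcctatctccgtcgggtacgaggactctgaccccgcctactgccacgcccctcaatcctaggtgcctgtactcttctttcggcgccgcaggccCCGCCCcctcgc
Gfpt1: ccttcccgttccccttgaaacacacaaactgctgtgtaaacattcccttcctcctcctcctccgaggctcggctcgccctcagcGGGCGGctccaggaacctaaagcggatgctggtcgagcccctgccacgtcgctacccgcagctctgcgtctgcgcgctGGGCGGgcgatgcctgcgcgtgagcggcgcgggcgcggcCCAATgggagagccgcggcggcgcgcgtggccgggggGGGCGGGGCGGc
The Pmm1 stretch was 66.0% G or C and the Gfpt1 stretch 72.0%, against a median of 52.4% over 32851 such windows in the mouse genome. The GC box lay in 32.7% of all windows and in 5 of the 8 members that had a window (Pmm1, Pmm2, Gfpt1, Pgm3 and Uap1). CCAAT lay in 33.8% of all windows and in 4 of the 8 (Gmppa, Gfpt1, Pgm3 and Uap1). The following 3 elements known from stress responses were also searched on both strands. TGATGNAA, the core of the amino acid response element, was in 3.45% of all windows, TGACGTG, the core of an unfolded protein response element, was in 1.65%, and the endoplasmic reticulum stress element, CCAAT followed by any 9 bases and CCACG, was in 0.113%. None of these 3 was found in the windows of the 8 members, which says only that these letters are not in these windows. The last of them contains the CCAAT that was also counted alone.

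Pcx, the deleted gene, was read first as a check of the labels. Its normalized count, which is the read count scaled to a common library size by TMM factors, was 18936 ± 3249 (SD, n = 4) in WT and 681 ± 89.9 (SD, n = 4) in Pcx L-/-, a log2 difference of -4.80 ± 0.19 (approximate SE). Libraries held 12016242 to 20023108 reads. Replicate 1 of Pcx L-/- stood apart from the other 3. On the principal component that separated the genotypes it lay at -4.33, between the WT libraries (26.5 to 35.2) and the other Pcx L-/- libraries (-42.7 to -34.3). That library also had the highest sum of 6 red blood cell genes, 4085 CPM, against 280 to 985 CPM in WT. The labels show mouse numbers in the 500s for this mouse and 2 WT mice and in the 800s for the other 5 mice. Values with and without replicate 1 are therefore given for the members. WT replicate 4 had the fewest reads and lay farthest along the next component. The summed level of 7 hepatocyte genes, such as Alb and Ttr, was 57318 to 87944 CPM in Pcx L-/- and 99489 to 121946 CPM in WT, and 1 of the 7 fell by the test. The sums of 6 macrophage, 6 endothelial and 6 stellate cell genes overlapped between genotypes. Of 6 pancreas and 5 muscle genes, Amy2a5, Acta1 and Myh1 had no read in any library. The part of these markers in the differences below was not tested. In whole liver, fewer cells of a type and less RNA per cell cannot be told apart.

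By mean deposited FPKM, a level per length, Pmm1 was the lowest of the 10 genes in control liver and had rank 3 in Pcx L-/- liver. Within libraries Pmm1 was below the next gene, Gmppb, in 2 of the 4 WT libraries. Its WT libraries 1 to 4 had normalized counts of 78.3, 86.7, 70.9 and 61.1, and its Pcx L-/- libraries 1 to 4 had 197, 917, 640.0 and 837. Every Pcx L-/- library was above every WT library, and replicate 1 was the lowest of the Pcx L-/- libraries by a wide margin. The means were 74.3 ± 10.9 (SD, n = 4) in WT and 648 ± 322 (SD, n = 4) in Pcx L-/-, a ratio of 8.72 and a log2 difference of 3.11 ± 0.40 (approximate SE). By size this was rank 29 from the top among the 13168 genes tested. Without replicate 1 the log2 difference was 3.41. Replicate 1 alone was 2.66 times the WT mean, and the other 3 together were 10.7 times it. Among mice numbered in the 500s (1 Pcx L-/- and 2 WT) the ratio was 2.39, and among those in the 800s (3 and 2) it was 12.1. The reads behind these values were 36 to 86 in the WT libraries and 209 to 1201 in the Pcx L-/- libraries. Pmm1 (ENSMUSG00000022474) lies at 15:81951108-81960930 on the minus strand of GRCm38 and has 9 merged exon blocks in GENCODE M21.

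Pmm2, which catalyses the same step, showed no difference of this size. Its normalized counts were 857, 905, 946 and 789 in WT libraries 1 to 4 and 895, 894, 847 and 926 in Pcx L-/- libraries 1 to 4. The Pcx L-/- values lay inside the WT range. The means were 874 ± 67.4 (SD, n = 4) in WT and 890.5 ± 32.6 (SD, n = 4) in Pcx L-/-, a log2 difference of 0.03 ± 0.10 (approximate SE) and 0.02 without replicate 1. Replicate 1 gave 1.02 times the WT mean for Pmm2, as did the other 3 together. With scaling by library size alone the log2 difference of Pmm2 was 0.31, where the median of all genes moved to 0.28 and Pmm1 stood at 3.43. Relative to that median, Pmm2 was then at 0.03 and Pmm1 at 3.15. The longest run of sequence shared by any annotated Pmm1 and Pmm2 transcript was 13 bases. Pmm2 (ENSMUSG00000022711) lies at 16:8637674-8662467 on the plus strand, and 39 of its exon bases overlap Tmem186 on the other strand.

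The make-up of the phosphomannomutase pair was compared per length, using the deposited FPKM, which scales reads by gene length and library total. In WT libraries 1 to 4 the Pmm1 FPKM was 0.167, 0.175, 0.137 and 0.141 times the Pmm2 FPKM. In Pcx L-/- libraries 1 to 4 the ratio was 0.401, 1.87, 1.38 and 1.65. Pmm1 was thus the minor transcript of the pair in all 4 WT libraries and in replicate 1 of Pcx L-/-, and the major transcript in the other 3. As a share of the summed FPKM of the pair, Pmm1 made up 13.4% ± 1.4 (SD, n = 4) in WT and 53.5% ± 16.8 (SD, n = 4) in Pcx L-/-. The summed FPKM of the pair was 22.8 ± 2.89 (SD, n = 4) in WT and 57.8 ± 19.7 (SD, n = 4) in Pcx L-/-, with 18.6 to 24.9 in the former and 30.2 to 74.2 in the latter. FPKM here carries no correction for composition, which leaves the ratio of a pair within a library untouched but not the sum. On the log2 scale of normalized counts, the Pmm1 to Pmm2 ratio was -3.57 ± 0.17 (SD, n = 4) in WT and -0.67 ± 1.02 (SD, n = 4) in Pcx L-/-, a difference of 2.89, or 3.40 without replicate 1.

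**Figure D1:**
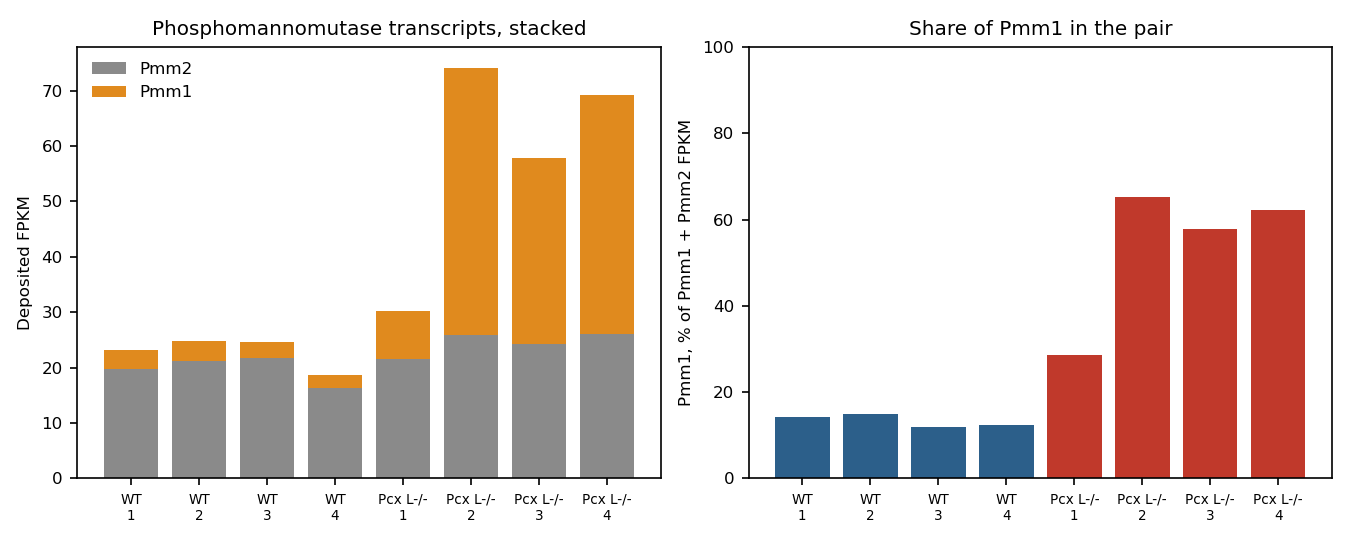
Phosphomannomutase transcripts in each library. Left, deposited FPKM of Pmm2 (grey) with Pmm1 (orange) stacked on it, for WT and Pcx L-/- replicates 1 to 4. Right, Pmm1 as a percentage of the summed FPKM, with WT in blue and Pcx L-/- in red. Each bar is 1 mouse. WT shares lie between 12% and 14.9%, replicate 1 of Pcx L-/- is at 28.6%, and the other 3 lie between 57.9% and 65.2%.

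The enzymes on either side of the phosphomannomutase step differed less. Mpi, which makes the substrate, had 174.8 to 224 normalized counts in WT and 188 to 226 in Pcx L-/-, ranges that overlapped almost fully. Its log2 difference was 0.04 ± 0.13 (approximate SE) and 0.06 without replicate 1 of Pcx L-/-. Gmppb, the catalytic subunit that makes GDP-mannose, had 159, 141, 160.2 and 221 normalized counts in WT libraries 1 to 4 and 188, 324, 249.6 and 298 in Pcx L-/- libraries 1 to 4. Replicate 1 of Pcx L-/- lay inside the WT range and the other 3 lay above it, for a log2 difference of 0.65 ± 0.19 (approximate SE) and 0.78 without replicate 1. Gmppa, the regulatory subunit, had 486, 420.4, 459 and 333 in WT libraries 1 to 4 and 451, 621, 587 and 638 in Pcx L-/- libraries 1 to 4. Here too replicate 1 lay inside the WT range and the other 3 above it, with a log2 difference of 0.43 ± 0.15 (approximate SE) and 0.53 without replicate 1. The log2 differences of the 5 genes of the mannose arm ran from 0.03 to 3.11, with a median of 0.43 against -0.01 over all genes tested. Those of Pmm2 (0.03 ± 0.10) and Mpi (0.04 ± 0.13) were smaller than their approximate SE. Each of these 2 reached -0.02 in a fit that left out 1 mouse. Gmppb (9:108049242-108052801, plus strand) shares 33.6% of its exon bases with Rnf123 on the opposite strand, and no source used here says whether counting respected strand. Mpi (9:57544256-57552763, minus strand) and Gmppa (1:75435930-75443179, plus strand) complete the arm.

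In the hexosamine arm, Gfpt1, the rate-limiting enzyme of the pathway, had the largest difference. Its normalized counts were 369.6, 366, 389 and 621 in WT libraries 1 to 4 and 450.1, 1434, 1057 and 1145 in Pcx L-/- libraries 1 to 4. WT replicate 4 was the high value of its group and lay above replicate 1 of Pcx L-/-, so the groups overlapped, and the other 3 Pcx L-/- libraries were above all WT libraries. The log2 difference was 1.24 ± 0.30 (approximate SE), 1.48 without replicate 1 of Pcx L-/- and 1.28 within the mice numbered in the 800s. Gnpnat1, the acetyltransferase, had 1717, 1838, 1467 and 1295 in WT libraries 1 to 4 and 2695, 1868, 2366 and 2215 in Pcx L-/- libraries 1 to 4. The groups did not overlap, although the closest libraries were 1838 and 1868, and replicate 1 was here the highest Pcx L-/- library. Its log2 difference was 0.53 ± 0.15 (approximate SE) and 0.44 without replicate 1. Gfpt1 lies at 6:87042846-87092197 on the plus strand and Gnpnat1 at 14:45376334-45404913 on the minus strand. Of the exon bases of Gnpnat1, 81.9% overlap Styx on the opposite strand. Styx itself had 361 reads over the 8 libraries against 16288 for Gnpnat1, and without strand the reads of the pair cannot be told apart.

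The later steps of the hexosamine arm showed small differences in both directions. Pgm3 had 274 to 494 normalized counts in WT and 343 to 457 in Pcx L-/-, a log2 difference of 0.21 ± 0.18 (approximate SE), which was 0.23 without replicate 1 of Pcx L-/- and 0.42 without WT replicate 4, and it shares 28.3% of its exon bases with Dop1a on the opposite strand. Uap1, which makes the nucleotide sugar, had 651, 585, 698 and 604 in WT libraries 1 to 4 and 659, 504.5, 547 and 427 in Pcx L-/- libraries 1 to 4. Replicate 1 of Pcx L-/- was inside the WT range and the other 3 were below it, with a log2 difference of -0.25 ± 0.13 (approximate SE) and -0.37 without replicate 1. Gne, which takes UDP-N-acetylglucosamine towards sialic acid, had 3009 to 5365 in WT and 3062 to 3564 in Pcx L-/-, a log2 difference of -0.22 ± 0.17 (approximate SE). It was -0.24 without replicate 1 of Pcx L-/- and -0.02 without WT replicate 4. The Pcx L-/- range of Gne lay inside that of WT, whose highest value was replicate 4. With scaling by library size alone, Uap1 and Gne had log2 differences of 0.02 and 0.08, which were -0.26 and -0.19 relative to the median of all genes under that scaling. The median of the 5 hexosamine genes was 0.21. Pgm3 (9:86554377-86571842), Uap1 (1:170141938-170174957) and Gne (4:44034075-44084177) all lie on the minus strand.

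**Figure D2:**
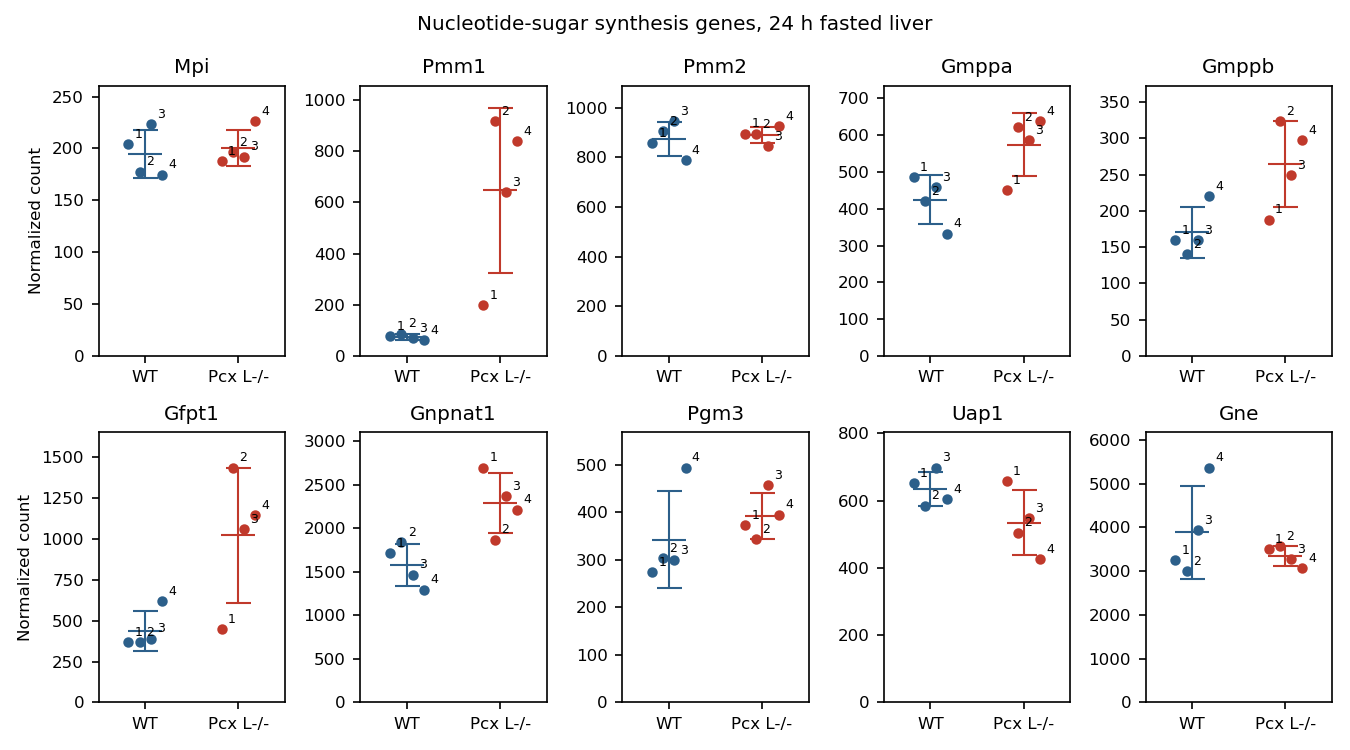
Normalized counts of the 10 genes in each library, with a vertical axis from 0 for each gene. Points are mice, numbered by replicate, with WT in blue and Pcx L-/- in red, and bars give the mean and SD of 4 mice. Replicate 1 of Pcx L-/- is the lowest library of its group for Pmm1, Mpi, Gmppa, Gmppb and Gfpt1 and the highest for Gnpnat1 and Uap1. Only Pmm1 and Gnpnat1 do not overlap between genotypes.

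Of the 10 genes, 5 were past an adjusted p of 0.05 as higher in Pcx L-/- by edgeR's quasi-likelihood test (Pmm1, Gfpt1, Gmppb, Gnpnat1 and Gmppa), where 14.1% of all genes tested were called higher. None was called lower, where 13.5% of all genes were, and 0 were lower at an unadjusted p under 0.05 by edgeR, DESeq2 or limma. In either direction 27.6% of all genes were called. Since Pmm1 was taken for this contrast, nothing is read from these counts. In 2 of the 10 genes, Pmm1 and Gnpnat1, the 4 and 4 libraries did not overlap, against 27.6% of all genes. The count of higher calls was also 5, with the same genes, without Pcx L-/- replicate 1. Without WT replicate 4 it was 5 as well, but with Pgm3 (edgeR adjusted p = 0.0259) in place of Gmppa (edgeR adjusted p = 0.0846). It was 3 without WT replicate 1, WT replicate 2, Pcx L-/- replicate 2 or Pcx L-/- replicate 4, and 2 without WT replicate 3 or Pcx L-/- replicate 3. Over 17 alternatives Pmm1 and Gfpt1 passed in all 17, Gnpnat1 in 15, Gmppb in 11 and Gmppa in 7. Leaving out replicate 1 of Pcx L-/- put Uap1 past the threshold as lower, and using only the mice numbered in the 800s did so for Gne, at -0.50.

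Levels in control liver were compared per length by FPKM, as a description, since the WT level of Pmm1 is part of the difference it was selected on. Gne was highest at 38.2 ± 8.05 (SD, n = 4), followed by Gnpnat1 at 32.3 ± 6.45, whose libraries overlapped with those of Gne. Pmm2 came next at 19.7 ± 2.40, below every Gnpnat1 value. Uap1 at 14.7 ± 1.56 and Gmppa at 13.5 ± 2.68 each overlapped with the gene before them, although Pmm2 was above Uap1 within all 4 libraries. Below a gap in which no values overlapped came Pgm3 at 6.78 ± 1.56, Mpi at 5.86 ± 0.87, Gfpt1 at 3.69 ± 0.80, Gmppb at 3.39 ± 0.48 and Pmm1 at 3.07 ± 0.59 (each SD, n = 4), each overlapping with its neighbour. In Pcx L-/- liver the mean FPKM of Pmm1 was 33.4, below Gnpnat1 at 56.2 and Gne at 40.4 and above Pmm2 at 24.5, and Gmppb was the lowest at 6.57. The order of WT means was the same after conversion to TPM. That conversion scales all genes of a library alike and cannot change the order within it, so it is no check of the order. The order also rests on the lengths behind the deposited FPKM. These were 1300 bases for Pmm1 and 2370 for Pmm2, against 2866 and 5531 merged exon bases in GENCODE M21. Ranks under other lengths were not computed.

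**Figure D3:**
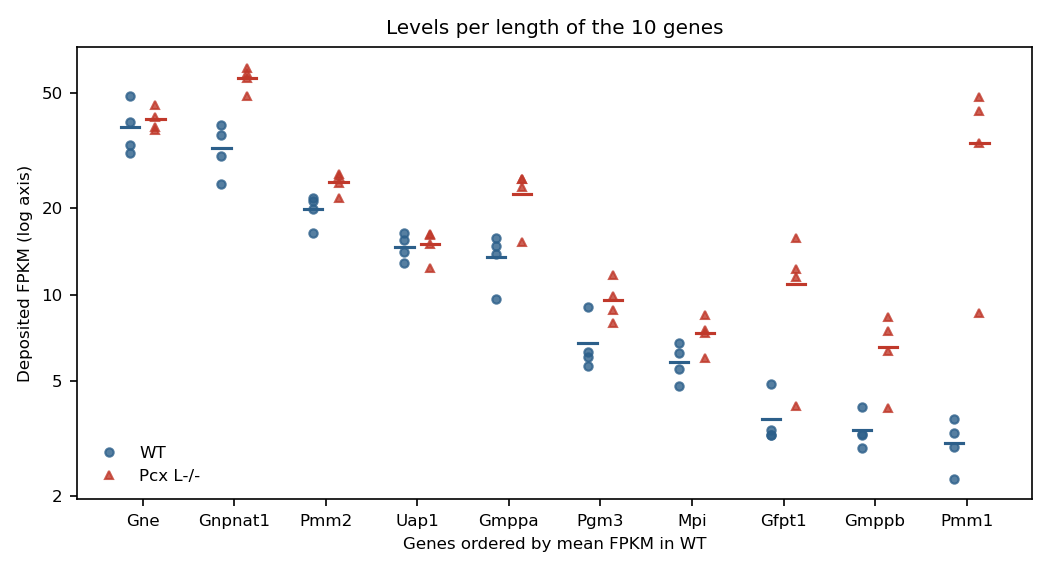
Deposited FPKM of the 10 genes on a log axis, ordered by their mean in WT. Circles are WT mice, triangles are Pcx L-/- mice and horizontal lines are means of 4. Pmm1 is the last gene in WT at a mean of 3.07 and reaches a mean of 33.4 in Pcx L-/-, with replicate 1 at 8.66.

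The genes whose levels followed Pmm1 most closely over the 8 libraries were sought among 12243 genes, as a description without a test. By Pearson's r of log2(normalized CPM + 0.5), they were Bri3bp (0.998), Gm26578 (0.998), Nasp (0.996), Krtcap2 (0.995) and Coro6 (0.994). Krtcap2 is a subunit of the oligosaccharyltransferase complex, which uses the finished oligosaccharide, and Nasp is a histone chaperone. The points share the genotype difference, so r was also taken after the genotype means were subtracted, and then Ptpn13 (0.994), Gm26578 (0.994), Bri3bp (0.989), Nrg1 (0.983) and Apex1 (0.980) came first. After that subtraction the spread is largely that between replicate 1 of Pcx L-/- and the other 3. By Spearman's rho, 23 genes shared the highest value of 1 with Pmm1, and 1 of the 5 genes named first, Coro6, was among them. Within the set, Gfpt1 had the highest r with Pmm1, 0.901 over the 8 libraries and 0.798 after subtraction, while by Spearman's rho over the 8 libraries Gmppa (0.786) and Gnpnat1 (0.762) were above Gfpt1 (0.667, as for Gmppb). Gmppa (0.881 and 0.764) and Gmppb (0.860 and 0.637) followed by r. Gnpnat1 had 0.630 over the 8 libraries and -0.455 after subtraction. Pmm2 had 0.223 and 0.127, and Uap1 had -0.809 and -0.796.

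Beyond the set, 98 genes of the wider pathway were grouped into 10 lists by step, and 94 of them could be tested. These genes were not chosen on Pmm1, but their lists were written with earlier results of the same libraries known. By edgeR with adjustment over all genes tested, 22 rose (23.4%, against 14.1% of all genes) and 8 fell (8.51%, against 13.5%), and the median log2 difference was 0.12 against -0.01 over all genes. With scaling by library size alone 42 rose and 2 fell, so that the share of higher calls moved from 73.3% to 95.5%, while the median of all genes moved to 0.28. The counts also rested on single mice, as did those over all genes. Without WT replicate 1, WT replicate 3, or Pcx L-/- replicate 2, 3 or 4, only 12 or 13 rose and 4 or 5 fell. The calls over all genes were then 2109 to 2722, against 3632 with all mice. Without Pcx L-/- replicate 1, 22 rose and 14 fell, with 4602 calls over all genes.

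**Figure D4:**
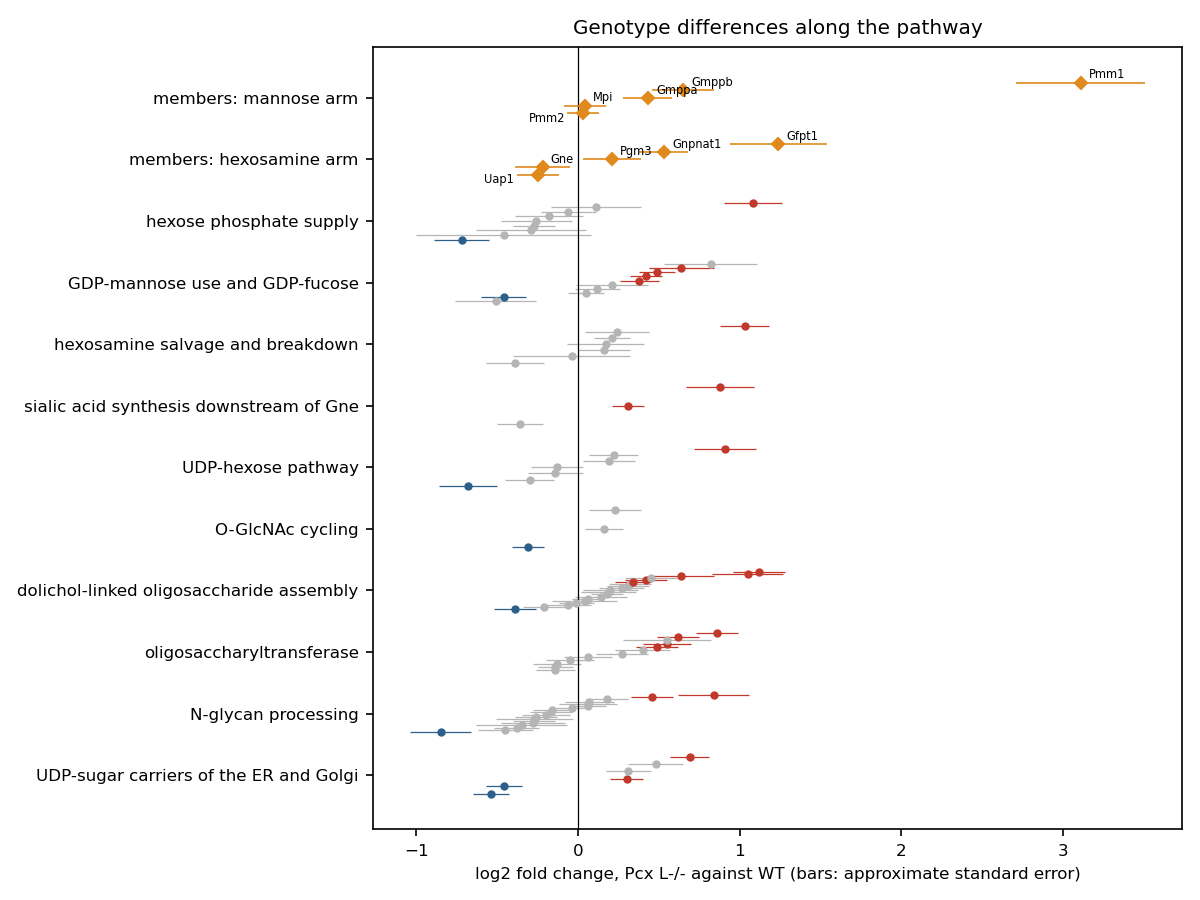
Log2 difference between Pcx L-/- and WT for the 10 members (orange diamonds, named) and for the tested genes of 10 neighbouring lists, with approximate standard errors. In the lists, red points rose and blue points fell at an adjusted p under 0.05, and grey points did not pass. Pmm1 at 3.11 lies beyond all other genes shown, the next being Gfpt1 at 1.24, and the oligosaccharyltransferase list has 4 red points.

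The lists that use the products of the mannose arm are read beside the 14.1% of all genes tested that rose and the 13.5% that fell. A list of 10 genes covered the use of GDP-mannose and dolichol-phosphate-mannose, and the making and transport of GDP-fucose. Of these, 4 rose (Dpm2, Mpdu1, Slc35c1 and Slc35c2), 1 fell (Fuk) and the median was 0.30. Dpm2, a subunit of the synthase that moves mannose onto dolichol, had 202 ± 56.9 normalized counts in WT and 317 ± 49.5 in Pcx L-/- (SD), with groups that overlapped and a log2 difference of 0.64 ± 0.20 (SE; edgeR adjusted p = 0.0337). That call was lost without WT replicate 1 or 3, or Pcx L-/- replicate 2, 3 or 4 (adjusted p 0.0565 to 0.0945). Dpm1 and Dpm3, of the same synthase, did not pass, with log2 differences of -0.51 ± 0.25 and 0.21 ± 0.22 (SE). Fuk, the salvage kinase for fucose, fell by 0.46 ± 0.14 on the log2 scale (SE; edgeR adjusted p = 0.0329), a call lost without any 1 library except WT replicate 4 and Pcx L-/- replicate 1 (adjusted p 0.0538 to 0.0988) and in 10 of 17 alternatives in all. Of 19 genes that assemble the oligosaccharide on dolichol, 5 rose (Alg3, Dpagt1, Alg1, Alg8 and Alg12), 1 fell (Dolk) and the median was 0.20. Alg3, a mannosyltransferase that draws on dolichol-phosphate-mannose, had 227 ± 44.5 normalized counts in WT and 490.4 ± 71.1 in Pcx L-/- (SD), a log2 difference of 1.12 ± 0.16 (SE; edgeR adjusted p = 0.00115) that kept its call in all 17 alternatives. Dolk, the kinase of dolichol, fell by 0.39 ± 0.13 on the log2 scale (SE; edgeR adjusted p = 0.049), and this call was lost in 12 of 17 alternatives, 6 of them leaving out 1 mouse (adjusted p 0.0774 to 0.140 in these 6; it was kept without WT replicate 2 or Pcx L-/- replicate 1). Of 12 oligosaccharyltransferase genes, 4 rose (Krtcap2, Stt3a, Stt3b and Tusc3) and the median was 0.33. Krtcap2 had 452 ± 22.4 normalized counts in WT and 822 ± 136 in Pcx L-/- (SD), a log2 difference of 0.86 ± 0.13 (SE; edgeR adjusted p = 0.00136), and kept its call in all 17 alternatives. The rule for named genes takes the called gene with the highest and the lowest difference in each list, and the other called genes are listed after their values were seen.

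After oligosaccharide transfer, of 18 genes of N-glycan processing, 2 rose (Man2a2 and Mgat4b, 11.1%), 1 fell (Man2a1, 5.56%) and the median was -0.18. Both shares were below those of all genes tested, of which 14.1% rose and 13.5% fell. The related Golgi mannosidases Man2a2 and Man2a1 moved in opposite directions. Man2a2 rose by 0.84 ± 0.22 on the log2 scale (SE; edgeR adjusted p = 0.0161), with groups that overlapped, and reached an adjusted p of 0.0521 without Pcx L-/- replicate 2. Man2a1 went from 7902 ± 1137 normalized counts in WT to 4396 ± 1260.4 in Pcx L-/- (SD), a log2 difference of -0.85 ± 0.19 (SE; edgeR adjusted p = 0.00915). Of 6 carriers of UDP-sugars into the endoplasmic reticulum or Golgi, 2 rose (Slc35d1 and Slc35d2, 33.3%) and 2 fell (Slc35a3 and Slc35b4, 33.3%). Slc35d1, a carrier of the endoplasmic reticulum, had a log2 difference of 0.69 ± 0.12 (SE; edgeR adjusted p = 0.00254). Slc35a3, a Golgi carrier for UDP-N-acetylglucosamine, had -0.54 ± 0.11 (SE; edgeR adjusted p = 0.00598), and did not pass with scaling by library size alone or by limma on FPKM, where its log2 difference was as small as -0.23.

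Around the hexosamine arm, Uap1l1, Nans, Cmas and Pgm2 rose, and Ogt, Pgm1 and Galk1 fell. The shares of each list are read beside the 14.1% of all genes tested that rose and the 13.5% that fell. Of 7 salvage and breakdown genes, 1 rose (14.3%, against 14.1% of all genes tested), Uap1l1, a homologue of Uap1, from 119 ± 3.20 to 245 ± 44.4 normalized counts (SD; log2 difference 1.03 ± 0.15, SE; edgeR adjusted p = 0.00121). Uap1 itself had a log2 difference of -0.25. Of 3 genes downstream of Gne, Nans and Cmas rose (66.7%). Nans, the sialic acid synthase, went from 115 ± 20.9 to 211 ± 54.7 normalized counts (SD) with overlap between the groups (log2 difference 0.88 ± 0.21, SE; edgeR adjusted p = 0.0108). Of 3 genes that add or remove O-linked N-acetylglucosamine, 1 fell (33.3%). This was Ogt, the transferase, which fell by 0.31 ± 0.10 on the log2 scale (SE; edgeR adjusted p = 0.0484). That call was lost in 13 of 17 alternatives, among them every analysis that left out 1 mouse other than Pcx L-/- replicate 1 (adjusted p 0.0542 to 0.153). Of 9 genes that supply hexose phosphates, Pgm2 rose (11.1%) and Pgm1 fell (11.1%), both phosphoglucomutase family members. Both shares were below those of all genes. Pgm2 (ENSMUSG00000029171) had 99.1 ± 7.56 normalized counts in WT and 208 ± 48.5 in Pcx L-/- (SD; log2 difference 1.08 ± 0.18, SE; edgeR adjusted p = 0.00242). Pgm1 (ENSMUSG00000025791) had 4153 ± 120.3 in WT and 2524 ± 699 in Pcx L-/- (SD; log2 difference -0.72 ± 0.17, SE; edgeR adjusted p = 0.0105). Of 7 UDP-hexose genes, 1 fell (14.3%). This was Galk1, the galactose kinase, which fell by 0.68 ± 0.18 on the log2 scale (SE; edgeR adjusted p = 0.0188). Its call was lost without WT replicate 1 or Pcx L-/- replicate 2, 3 or 4 (adjusted p 0.0550 to 0.0659), with scaling by library size alone or by limma on FPKM.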

How the data were processed

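Total RNA from flash-frozen liver was sequenced by a company. The authors aligned reads to mm10 and deposited a table of unnormalized read counts by Ensembl gene. The submitters' processing notes name STAR 2.5, HTSeq 0.6.1 and DESeq2, and no source used here gives the annotation release or use of strand. A second table from the authors holds FPKM, of which 100% of 142384 values above 0 equalled count over length and library total (relative tolerance 1e-06). Symbols came from GENCODE M21 (97.8% of 35275 identifiers matched) and promoter windows from RefSeq GRCm38.p6, in which 8 of 10 members had an entry.

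Genotypes were compared with edgeR 4.0.16 in R 4.3.3 (TMM, filterByExpr with a minimum count of 10 and total of 15, quasi-likelihood test on genotype alone, Benjamini-Hochberg over 13168 genes, 6 residual degrees of freedom). Approximate standard errors were computed as the log2 difference over the root of F. Alternatives used DESeq2 1.42.0 (Wald) and limma 3.58.1 on log2(FPKM + 1) and log2(FPKM + 0.1). The members, lists and motifs were chosen with earlier results of these data known. Named genes were the 10 members, Pcx, the called gene with the highest and lowest difference in each list, and the 5 genes with the highest r with Pmm1 (mean CPM of at least 1), before and after genotype means were subtracted. The result for 1 gene taken by this rule is not reported here. On simulated counts with 4 against 4 libraries and 13050 genes, edgeR recovered 92% of genes changed by 1 on the log2 scale. It recovered 100% of those changed by 2, and made 14 false calls. Recovery at the spread of the mice themselves, such as 648 ± 322 (SD, n = 4) for Pmm1 in Pcx L-/-, was not tested. Each library is a different mouse, and low read numbers limit the precision of Pmm1 in WT.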

Additional observations from a re-analysis of the deposited data

Results flagged for a closer look

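In WT, the replicate 4 value of Gfpt1, 621 normalized counts, was far from the other 3 (366 to 389.1), with a gap to the nearest of 0.910 of the range, above Dixon's 95% critical value for 4 samples. The replicate 4 value of Pgm3, 494 normalized counts, was likewise far from the other 3 (274 to 303), with a gap of 0.866 of the range. Chance alone marks about 1 in 20 groups, and 22 groups were looked at. WT replicate 4 was the library with the fewest reads, 12016242, and its TMM factor of 0.833 was the lowest of the 8. Without it the log2 differences of Gfpt1 and Pgm3 were 1.45 and 0.42. The part of depth in these values was not tested.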

How the results depend on the processing

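Alternatives were run for the 10 members and for the wider pathway genes that the rule names, and none of these that passed the test changed direction. Pmm1 stayed between 2.72 and 3.58 over 17 alternatives, with its ratio to Pmm2 changing by 2.56 to 3.54 on the log2 scale over 14. The values for the ratio are not all the same measure. In the main analysis the difference of mean log2 ratios was 2.89, while the DESeq2 value of 3.10 matched fitted log2 differences of 3.11 and 0.01. The lowest, 2.56, came from limma on log2(FPKM + 1), where 1 is added to each FPKM. With scaling by library size alone, 42 wider pathway genes rose, 2 fell and Pmm2 had a log2 difference of 0.31. These were 41, 2 and 0.30 by limma on log2(FPKM + 1), and 40, 2 and 0.31 on log2(FPKM + 0.1). Those 3 scalings carry no correction for composition, and of all genes called under library size alone 81.8% were higher against 51.1% with TMM. In an analysis of the mice numbered in the 800s alone, which was chosen after seeing the data, 1 member was called lower. Leaving out 1 mouse in turn gave 2109 to 4602 genes called of 3632 with all mice, with 2109 without Pcx L-/- replicate 4 and 2295 without replicate 2. It gave 2 to 5 members called higher, 0 to 1 called lower, 12 to 25 wider genes higher and 4 to 14 lower. DESeq2's Wald test called 4024 genes.

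Mice with the same replicate number did not deviate together (correlations of 0.118, -0.145, -0.121 and -0.0806). These values give no sign that the numbers pair the mice, but so few values cannot exclude a pairing. With the replicate number as a block 2975 genes were called, with 4 members and 19 wider genes higher, 0 members and 6 wider genes lower. In that fit the log2 difference was 2.92 for Pmm1 and 0.03 for Pmm2, and their ratio changed by 2.89. In WT, 36 to 86 reads lie behind Pmm1.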
